A study of Oryza sativa with 12 samples.

Results

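Aquaporins are the water and small-solute channels of rice, and they were examined here in an overexpressing line and its wild type, in roots and shoots. Members were all gene models whose annotation in the deposited table carries the major intrinsic protein domain (Pfam PF00230), which gave 38 of 57501 models. By the protein names in that table, 2 belong to PIP1, 10 to PIP2, 12 to TIP, 12 to NIP and 2 to SIP. The 4 groups were OX6 root, WT root, OX6 shoot and WT shoot, with 3 libraries of polyadenylated RNA each. OX6 is a line that overexpresses Zaxinone Synthase (ZAS), a carotenoid cleavage dioxygenase, and WT is Nipponbare. All plants were 21 days old and grown hydroponically. The sources used here do not name the promoter of the transgene. OX6 is 1 line, so effects of ZAS and of any other difference between the plant stocks cannot be told apart. Nothing in the labels tells if replicates came from different plants, and p-values therefore reflect the spread of these libraries alone, possibly a technical one.

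Aquaporins are membrane proteins that let water cross a membrane down its osmotic gradient, and several also pass small uncharged solutes. PIPs sit mainly in the plasma membrane, where PIP2 proteins conduct water by themselves and PIP1 proteins reach the membrane in complexes with PIP2 partners. TIPs sit mainly in the vacuolar membrane, and SIPs in the endoplasmic reticulum. Among the NIPs, rice NIP2-1 is the silicon influx channel Lsi1 of the root, NIP2-2 is the related silicon channel Lsi6, and NIP3-1 is a channel for boric acid.

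Some names in the table need care. LOC_Os07g26640 is named PIP2-6 after a maize protein, LOC_Os10g34000 is named PIP2-1 likewise, and LOC_Os04g46530 is named TIP2-3 likewise and also carries a retrotransposon gag-polypeptide domain. The first pair is called by its locus identifiers below, and PIP2-6 and PIP2-1 mean the rice-named loci LOC_Os04g16450 and LOC_Os07g26690. The names TIP3-1, NIP3-2 and NIP3-3 are each shared by a pair of models. One further model, PIP1-1 (LOC_Os02g44630), is named an aquaporin but listed with no Pfam domain and so is not a member. It averaged 1076 ± 87.2 TPM in OX6 roots and 1037 ± 78.3 TPM in WT roots, and 554 ± 26.3 TPM in OX6 shoots and 443 ± 27.6 TPM in WT shoots (SD, n = 3 each), with no call for genotype in roots (adjusted p = 0.844) or in shoots (adjusted p = 0.152; edgeR). Reads of near-identical members may be shared between models, so the split between close relatives is uncertain.

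Total counts per library ranged from 32269044 to 62910092, and WT shoot replicate 2 was the deepest. The ZAS locus averaged 321 TPM in OX6 roots and 2.82 TPM in WT roots, and 1398 TPM in OX6 shoots and 0.221 TPM in WT shoots, on the side of the label in every library. Summed counts of 4 Rubisco small-subunit genes were 16.0 to 25.5 CPM in roots and 29338 to 35531 CPM in shoots, and those of 6 Casparian strip membrane protein genes were 139 to 169 CPM in roots and 4.09 to 5.81 CPM in shoots. The other lists meant to mark roots, the nitrate transporter 2 and nicotianamine aminotransferase genes, were not higher in roots than in shoots.

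Aquaporin transcripts were a larger part of the root than of the shoot transcriptome, and the total did not separate the genotypes in roots. They took 1.36 to 1.48% of all counts in roots and 0.565 to 0.688% in shoots. Summed over the 38 members, the level was 14756 ± 410 TPM in OX6 roots and 14666 ± 769 TPM in WT roots (TPM is a level corrected for gene length and library depth; SD, n = 3). In shoots the sum was 7348, 7332 and 7169 TPM in OX6 and 6593, 6887 and 5942 TPM in WT. Every OX6 shoot library was above every WT shoot library in this sum, which was not tested because it pools members. TPM ratios of OX6 over WT in shoots also ran 0.07 (log2) above the scale of the tests at the median gene. That shift is 1.05-fold, and the nearest sums were 7169 TPM in OX6 and 6887 TPM in WT. The separation may thus not hold on that scale, where it was not checked. In such bulk samples, fewer cells of a type and less RNA per cell cannot be told apart.

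The organs differed in which subfamilies made up the total. NIPs summed to 3538 ± 279 TPM in OX6 roots and 3618 ± 313 TPM in WT roots, against 235 ± 11.6 TPM in OX6 shoots and 215 ± 12.2 TPM in WT shoots. They were 24.7% of the WT root total and 3.32% of the WT shoot total. PIP1 members summed to 2333 ± 208 TPM in OX6 roots and 2614 ± 158 TPM in WT roots, and to 604 ± 83.0 TPM in OX6 shoots and 464 ± 56.0 TPM in WT shoots. These sums leave out PIP1-1, which is not a member and averaged 1037 TPM in WT roots and 443 TPM in WT shoots. In TPM, PIP2 was the subfamily whose sum was close in both organs, at 3212 ± 165 TPM in OX6 roots, 3281 ± 177 TPM in WT roots, 3376 ± 227 TPM in OX6 shoots and 3199 ± 305 TPM in WT shoots. Root over shoot TPM ratios ran above the scale of the tests by 0.45 (log2) in WT and 0.39 in OX6 at the median gene. The closeness of the PIP2 sums thus holds for TPM alone. The members behind the PIP2 sum were different ones in the 2 organs, as described below. TIPs summed to 5581 ± 319 TPM in OX6 roots and 5050 ± 422 TPM in WT roots, and to 3005 ± 159 TPM in OX6 shoots and 2532 ± 203 TPM in WT shoots. SIPs made up 0.627 to 0.984% of the total in each group.

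**Figure D1:**
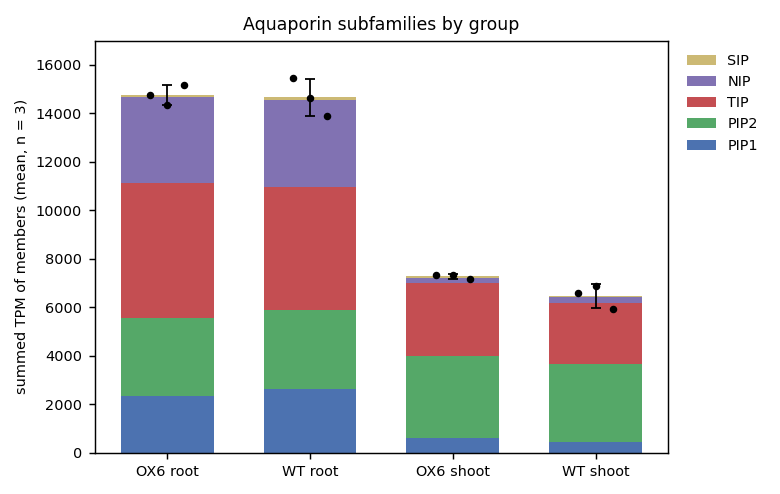
Stacked bars give the mean summed TPM of each subfamily (y axis) in OX6 root, WT root, OX6 shoot and WT shoot (n = 3 each); black points are the totals of single libraries and error bars are their SD. Root totals lie between 13910 and 15447 TPM and shoot totals between 5942 and 7348 TPM, and the NIP segment is thin in shoots.

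Root and shoot were compared within each genotype in 1 edgeR fit of all 12 libraries. Of 37 members tested in WT, 22 were higher in roots and 8 were lower (called at an adjusted p under 0.05). Over all genes tested, 73% were called in WT, with 37.6% higher in roots and 35.4% lower. In OX6, 21 members were higher in roots and 10 lower, where 73.8% of all genes were called, 37.3% higher and 36.5% lower. The call was root in both genotypes for 21 members and shoot in both for 8. By subfamily in WT, both PIP1 members, 8 of 10 PIP2, 4 of 11 tested TIPs, 7 of 12 NIPs and 1 of 2 SIPs were higher in roots. Fold changes are on the scale of the fit. Ratios of TPM between root and shoot run above it by 0.45 (log2) in WT and 0.39 in OX6 at the median gene.

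PIP2-7 and NIP2-1 were the most abundant members of shoots and of roots. PIP2-7 (LOC_Os09g36930, chromosome 9, 21310129 to 21311548), a plasma membrane water channel, had 0.0910, 0.0590 and 0.557 TPM in OX6 roots and 0.0608, 0.208 and 0.177 TPM in WT roots. It had 2689, 2080 and 2334 TPM in OX6 shoots and 2345, 2771 and 2244 TPM in WT shoots. It supplied 37.9% of the WT shoot total, was near 0 in every root library, and its shoot levels overlapped between genotypes. The root over shoot log2 fold change was -14.42 in WT (SE 0.33, adjusted p = 1.75e-16). In OX6 it was -13.65 (adjusted p = 2.12e-16), or -15.24 without OX6 root replicate 3, which held most of the root counts.

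NIP2-1 (LOC_Os02g51110, chromosome 2, 31266245 to 31269960) showed the opposite organ pattern. This silicon channel had 3385, 3371 and 2870 TPM in OX6 roots and 3233, 3690 and 3076 TPM in WT roots. In shoots it had 9.57, 7.30 and 8.53 TPM in OX6 and 14.3, 9.32 and 8.19 TPM in WT. It ranked 1 among members in both root groups, with 22.7% of the WT root total, and the genotypes overlapped in both organs. Its root over shoot fold was 289 in OX6 and 231 in WT (log2 8.17 and 7.85). NIP2-2 (LOC_Os06g12310), the other silicon channel, was less divided between organs. It averaged 221 ± 13.4 TPM in OX6 roots and 187 ± 11.5 TPM in WT roots, and 72.4 ± 15.3 TPM in OX6 shoots and 87.3 ± 17.8 TPM in WT shoots.

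Several PIP2 members of the root were almost without reads in shoots. PIP2-3 (LOC_Os04g44060) had 557, 537 and 539 TPM in OX6 roots and 607, 594 and 542 TPM in WT roots, while no shoot library exceeded 0.541 TPM. Its root over shoot log2 fold change was 10.89 in WT (SE 0.38, adjusted p = 2.9e-12), and 11.80 without WT shoot replicate 1. LOC_Os07g26640 had no read in the OX6 shoot libraries and 2 reads in the WT shoot libraries, against averages of 44.3 TPM in OX6 roots and 74.4 TPM in WT roots. With 3 counts taken as the floor over a group, its level in OX6 was at least 559-fold higher in roots than in shoots. PIP1-2 (LOC_Os04g47220), the more abundant of the PIP1 members, which do not include PIP1-1, was present in both organs. It averaged 1765 ± 180 TPM in OX6 roots and 1927 ± 139 TPM in WT roots, and 576 ± 83.6 TPM in OX6 shoots and 434 ± 48.6 TPM in WT shoots. PIP2-1 (LOC_Os07g26690) likewise had 1331 ± 117 TPM in OX6 roots, 1284 ± 93.2 TPM in WT roots, 456 ± 63.9 TPM in OX6 shoots and 354 ± 5.73 TPM in WT shoots.

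TIP members were divided within the subfamily. TIP2-1 (LOC_Os02g44080) had 1224, 946 and 1236 TPM in OX6 roots and 1194, 872 and 1071 TPM in WT roots, with at most 0.401 TPM in any shoot library. Its root over shoot log2 fold change in WT was 11.84 (adjusted p = 3.57e-14), and 14.18 without WT shoot replicate 2, which held most of the shoot reads. TIP2-3 (LOC_Os04g46530) had no read in the 6 shoot libraries, and with the floor of 3 counts over a group its root level was at least 2156-fold higher in OX6 and at least 2023-fold higher in WT. TIP1-1 (LOC_Os03g05290), a general vacuolar water channel, was high everywhere, at 2376 ± 180 TPM in OX6 roots, 2139 ± 189 TPM in WT roots, 1128 ± 100 TPM in OX6 shoots and 989 ± 74.2 TPM in WT shoots. TIP4-1 (LOC_Os05g14240) and the neighbouring pair TIP4-2 (LOC_Os01g13130) and TIP4-3 (LOC_Os01g13120) on chromosome 1 were called higher in shoots in both genotypes. TIP4-2 had 0.189, 0.368 and 0.152 TPM in OX6 roots and 0.537, 0.0617 and 0.461 TPM in WT roots, against 6.88, 6.41 and 5.58 TPM in OX6 shoots and 6.40, 5.36 and 7.09 TPM in WT shoots. Its root over shoot log2 fold change was -5.10 in OX6 and -4.59 in WT (adjusted p = 2.2e-09 and 4.28e-09). TIP1-2 (LOC_Os01g74450) was called lower in roots in both genotypes, with log2 fold changes of -0.40 in OX6 and -0.53 in WT, but these are close in size to the shift between the scales, and its TPM means were 460 in OX6 roots, 478 in WT roots, 463 in OX6 shoots and 504 in WT shoots. Its call was lost in WT without WT root replicate 3 (adjusted p = 0.0596), and in OX6 in 8 of 15 alternatives, which include leaving out OX6 root replicate 1 or 2 or OX6 shoot replicate 1 or 3 (0.0613 to 0.141), within ranges of 0.000242 to 0.0596 in WT and 0.0029 to 0.181 in OX6.

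Most of the remaining members were low. In WT roots 15 members were at 100 TPM or more and 8 were under 1 TPM, and in WT shoots 9 were at 100 TPM or more and 14 under 1 TPM. The 6 highest members held 75.7% of the total in OX6 roots and 74.1% in WT roots, and 82.0% in OX6 shoots and 83.4% in WT shoots. TIP3-1, TIP3-2, TIP5-1, NIP1-4, NIP3-3 and NIP4-1 models averaged at most 2.54 TPM in any group. SIP1-1 (LOC_Os01g08660) averaged 84.1 ± 4.24 TPM in OX6 roots, 94.1 ± 3.12 TPM in WT roots, 55.1 ± 3.38 TPM in OX6 shoots and 55.9 ± 5.45 TPM in WT shoots. SIP2-1 (LOC_Os03g20410) averaged 8.37 ± 1.31 TPM in OX6 roots, 8.71 ± 0.988 TPM in WT roots, 6.85 ± 1.20 TPM in OX6 shoots and 7.74 ± 0.365 TPM in WT shoots, and was not called between organs in either genotype.

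**Figure D2:**
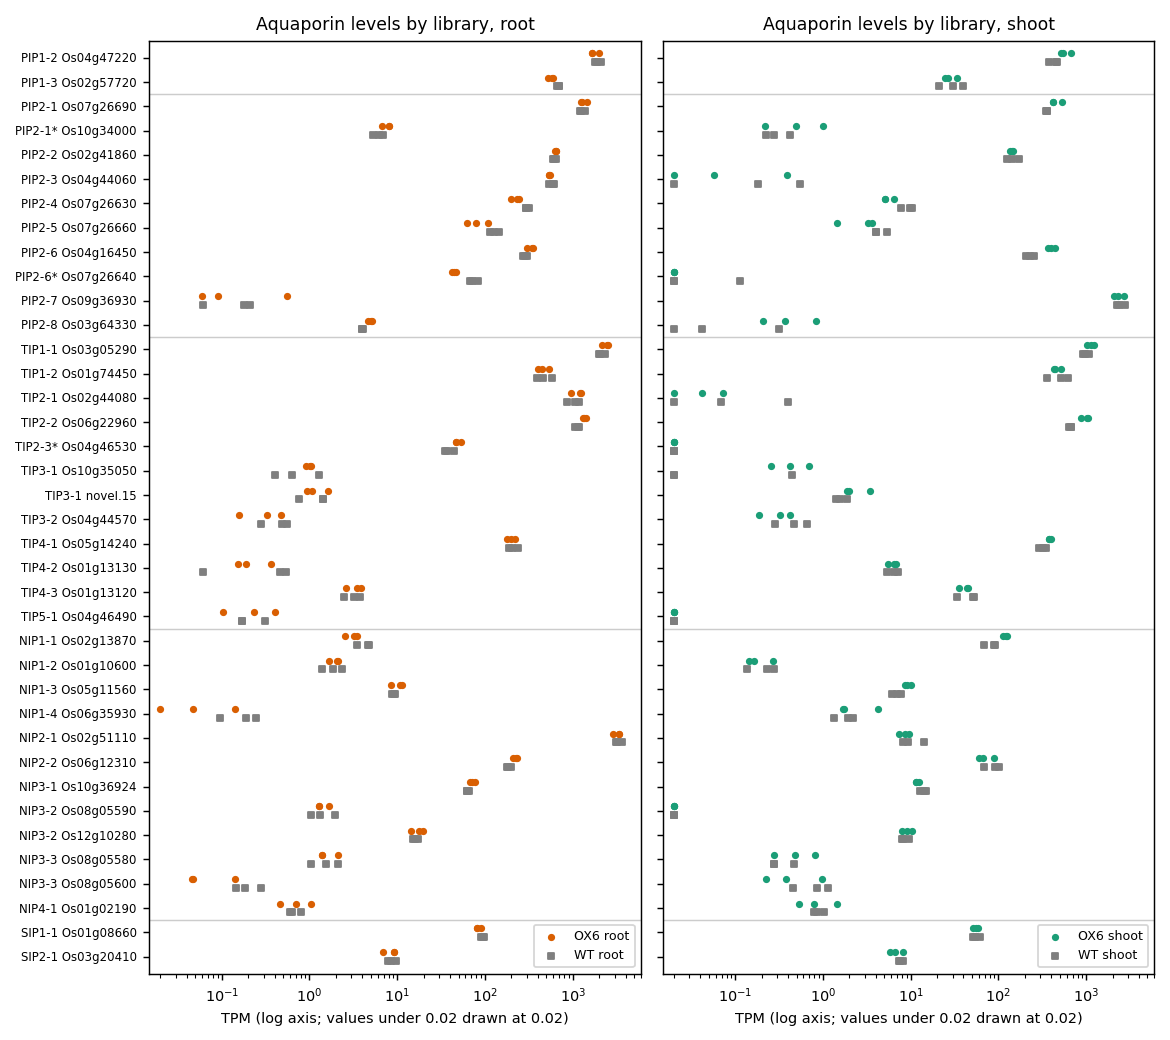
Each row is 1 member, named as in the deposited table (an asterisk marks a maize name), grouped by subfamily; points give TPM in single libraries on a log axis, OX6 as circles above and WT as squares, with roots on the left and shoots on the right. Values at or near 0 are drawn at a common low position on the log axis. Levels run from 0 to 3690 TPM. PIP2-7 is under 1 TPM in roots and has the highest shoot levels, while TIP2-1 and PIP2-3 are high in roots and under 1 TPM in shoots. NIP2-1 has the highest root levels and 7.30 to 14.3 TPM in shoots.

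In roots, OX6 and WT differed in few aquaporins and by small amounts. By name, a pair of TIP2 members was higher in OX6 and 3 PIP members were lower, with TIP2-3 and LOC_Os07g26640 placed by maize names. Of these calls, the 12-library fit kept that of LOC_Os07g26640 alone. Of 34 members tested, 2 were higher and 3 lower, or 14.7%, against a background of 2.83% over all genes (1.19% higher and 1.64% lower). In this comparison 1 of 2 PIP1, 2 of 9 tested PIP2, 2 of 11 TIPs and 0 of 10 NIPs were called. At an unadjusted p under 0.05, 3 NIPs passed, and DESeq2 and limma-voom each called 1 NIP. Neither SIP was called by edgeR, DESeq2 or limma-voom, and 1 passed an unadjusted p of 0.05. The median log2 fold change of the members was 0.05, and 0.00 over all genes tested.

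LOC_Os07g26640, a PIP2 by its name, had the clearest difference. It had 42.6, 46.3 and 43.9 TPM in OX6 roots and 71.5, 83.9 and 67.9 TPM in WT roots. The groups did not overlap, and the log2 fold change was -0.76 (SE 0.09, adjusted p = 5.63e-05, edgeR), a level 1.69-fold lower in OX6. PIP2-4 (LOC_Os07g26630), a plasma membrane water channel, had 229, 200 and 244 TPM in OX6 roots and 315, 295 and 291 TPM in WT roots. Its log2 fold change was -0.42 (SE 0.08, adjusted p = 0.00526), again without overlap. Both remained called when any 1 library was left out, with adjusted p up to 0.000451 for LOC_Os07g26640 and up to 0.0337 for PIP2-4. In the 12-library fit PIP2-4 was not called (adjusted p = 0.0924; range over its 15 alternatives 1.52e-05 to 0.0924).

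The other calls in roots lay close to the threshold. PIP1-3 (LOC_Os02g57720, chromosome 2, 35349673 to 35351454), a PIP1 of the plasma membrane, had 577, 526 and 599 TPM in OX6 roots and 703, 694 and 662 TPM in WT roots, a log2 fold change of -0.28 (SE 0.07, adjusted p = 0.041). TIP2-2 (LOC_Os06g22960, chromosome 6, 13407319 to 13408859), of a TIP group that in Arabidopsis also passes ammonia, had 1318, 1404 and 1341 TPM in OX6 roots and 1146, 1193 and 1056 TPM in WT roots, a log2 fold change of 0.26 (SE 0.07, adjusted p = 0.0479). TIP2-3 (LOC_Os04g46530, chromosome 4, 27592239 to 27596150) had 46.8, 47.2 and 52.6 TPM in OX6 roots and 43.8, 35.1 and 36.6 TPM in WT roots, a log2 fold change of 0.34 (SE 0.08, adjusted p = 0.0293). None of these members overlapped between genotypes, but neither did PIP2-5, PIP2-8, NIP1-1, NIP2-2, NIP3-1 and SIP1-1, which were not called in roots. A NIP3-3 model not tested in roots, LOC_Os08g05600, did not overlap either. The share of all genes without overlap was not counted. The calls of PIP1-3, TIP2-2 and TIP2-3 depended on single libraries. TIP2-2 lost its call when any 1 of the 6 root libraries was left out (adjusted p 0.0580 to 0.289). PIP1-3 lost its call without OX6 root replicate 2 or 3 or any WT root replicate (0.0559 to 0.167), and TIP2-3 without OX6 root replicate 1 or 3 or WT root replicate 2 or 3 (0.0639 to 0.168). With 12 libraries in 1 fit the adjusted p was 0.786 for PIP1-3, 0.42 for TIP2-2 and 0.224 for TIP2-3. Over their 15 alternatives the adjusted p ranged from 0.00523 to 0.786 for PIP1-3, from 0.00527 to 0.42 for TIP2-2 and from 0.00166 to 0.224 for TIP2-3.

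Among the 6 most abundant root members TIP2-2 was the one called between genotypes, as given above. NIP2-1 had a log2 fold change of -0.06 (95% interval -0.25 to 0.14, adjusted p = 0.863), TIP1-1 of 0.15 (-0.02 to 0.32, adjusted p = 0.445), PIP1-2 of -0.13 (-0.29 to 0.03, adjusted p = 0.492), PIP2-1 of 0.05 (-0.11 to 0.20, adjusted p = 0.851) and TIP2-1 of 0.12 (-0.24 to 0.48, adjusted p = 0.818). NIP2-2 had 206, 226 and 232 TPM in OX6 roots and 199, 177 and 185 TPM in WT roots, without overlap, and an adjusted p of 0.0524 at a log2 fold change of 0.24. It was called in 5 alternatives, with adjusted p from 0.0157 to 0.0469.

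**Figure D3:**
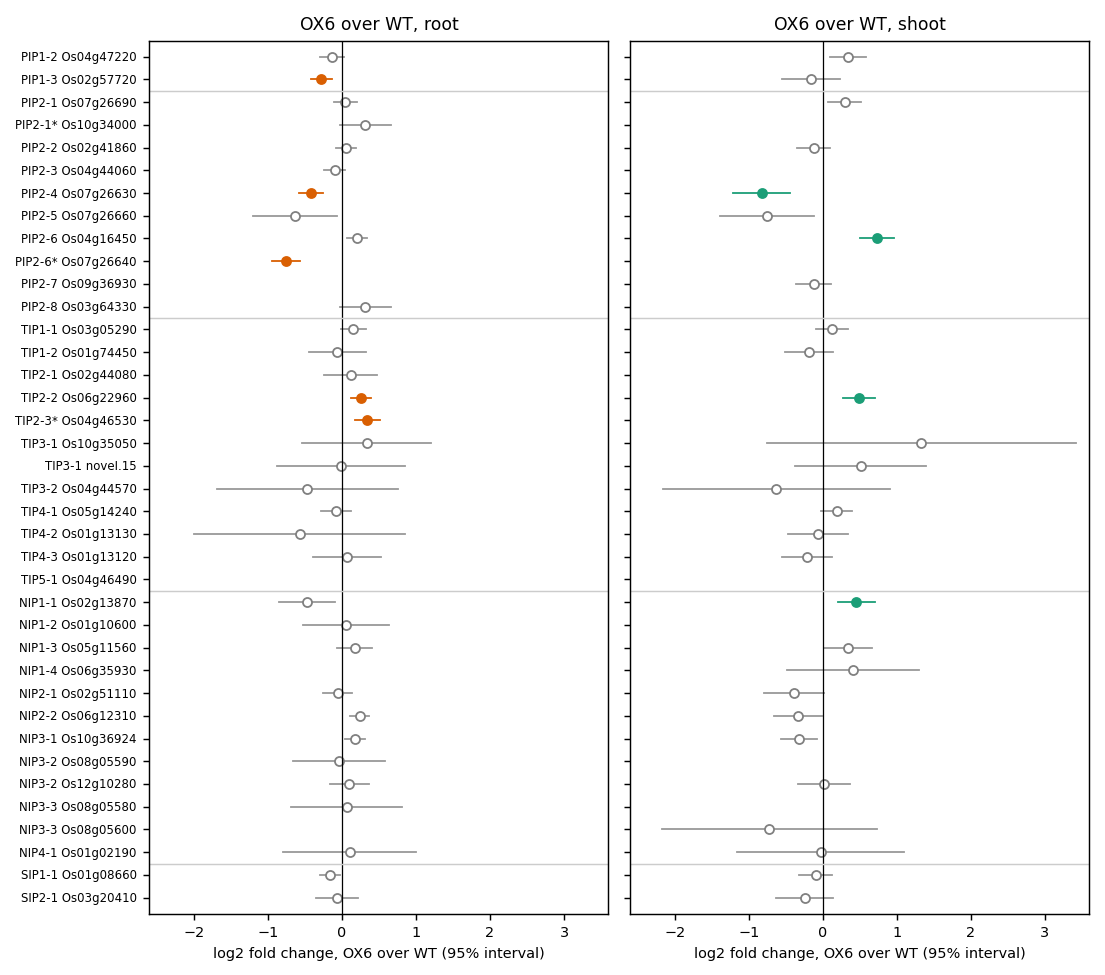
Points are log2 fold changes of OX6 over WT for each tested member (rows, by subfamily) in roots (left) and shoots (right), with 95% intervals; filled points are called at an adjusted p under 0.05, rows without a point were not tested, and an asterisk marks a maize name. Called members lie between -0.83 and 0.73, and the intervals differ widely in width between members.

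The root members called lower on chromosome 7 were neighbours. PIP2-4 (15358960 to 15360495), LOC_Os07g26640 (15369135 to 15370167), PIP2-5 (LOC_Os07g26660, 15376916 to 15378292) and PIP2-1 (15406442 to 15409801) lie on the plus strand within 50842 bases, in the coordinates of the deposited table, whose genome build is not given in the sources used here. PIP2-5, a plasma membrane water channel, had 78.1, 61.8 and 107 TPM in OX6 roots and 143, 113 and 126 TPM in WT roots. The OX6 libraries were all below the WT libraries but spread widely, and the log2 fold change of -0.63 (SE 0.22) was not called (adjusted p = 0.314), though it was without OX6 root replicate 3 (-0.85, adjusted p = 0.0113). PIP2-1, the last of the 4, had 1255, 1272 and 1465 TPM in OX6 roots and 1388, 1207 and 1259 TPM in WT roots, with a log2 fold change of 0.05 (adjusted p = 0.851).

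The nearest tested gene on each side of this stretch was not called, and 2 other models within it were not tested in roots. Only 2.83% of all genes were called in roots, so an uncalled gene on each side does not bound the stretch. The nearest tested gene before it, LOC_Os07g26610, named phosphoglucomutase/phosphomannomutase, had a root log2 fold change of 0.06 (adjusted p = 0.787). The nearest after it, LOC_Os07g26700, named mitochondrial pyruvate carrier 4, had one of -0.04 (adjusted p = 0.873). In shoots PIP2-4 was also lower in OX6, as given below, PIP2-5 had a log2 fold change of -0.76 (adjusted p = 0.172) and PIP2-1 one of 0.29 (adjusted p = 0.132). PIP2-5 averaged 2.79 ± 1.18 TPM in OX6 shoots and 4.45 ± 0.740 TPM in WT shoots. These members were singled out as neighbours after their values were seen, and near-identical PIP2 copies may share reads.

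**Figure D4:**
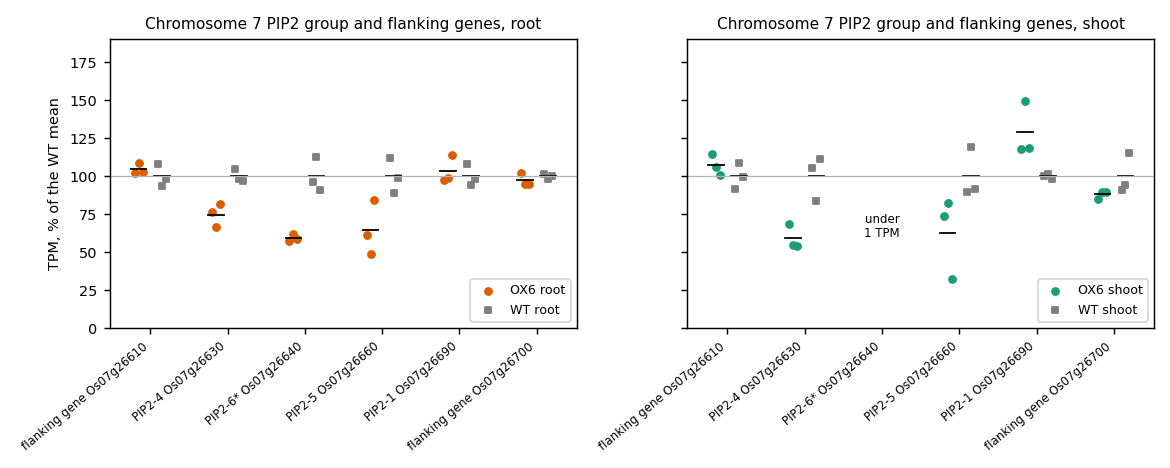
Points give each library's TPM as a percent of the WT mean of the same organ, for the 4 PIP2 neighbours on chromosome 7 in their order along it and the nearest tested gene on each side; OX6 circles stand left of WT squares, and black lines are means (n = 3). In roots the OX6 libraries of PIP2-4, LOC_Os07g26640 (PIP2-6 with an asterisk) and PIP2-5 lie below all WT libraries, while PIP2-1 and both flanking genes overlap; LOC_Os07g26640 was under 1 TPM in shoots.

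In shoots, a plasma membrane channel, a vacuolar channel and a NIP were higher in OX6, and PIP2-4 was lower. Of 28 members tested, 3 were higher and 1 lower, or 14.3%, against a background of 5.64% over all genes (3.18% higher and 2.46% lower). By subfamily, 2 of 6 tested PIP2, 1 of 9 TIPs and 1 of 9 NIPs were called. Neither of the 2 PIP1 was called by edgeR, while 1 passed an unadjusted p of 0.05 and DESeq2 called 1 and limma-voom 0. Neither SIP was called by edgeR, DESeq2 or limma-voom, and 0 passed an unadjusted p of 0.05. The median log2 fold change of the members was -0.08, and -0.01 over all genes tested.

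PIP2-6 (LOC_Os04g16450, chromosome 4, 8948206 to 8950028), a plasma membrane water channel, differed most clearly. It had 369, 440 and 395 TPM in OX6 shoots and 206, 257 and 228 TPM in WT shoots. The groups did not overlap, and the level was 1.66-fold higher in OX6 (log2 fold change 0.73, SE 0.11, adjusted p = 0.00044). It remained called in its 15 alternatives, with adjusted p up to 0.00743. In roots PIP2-6 had 298, 344 and 354 TPM in OX6 and 302, 285 and 272 TPM in WT. It was not called there (log2 fold change 0.21, adjusted p = 0.122, edgeR), within a range of 0.0355 to 0.669 over 15 alternatives. TIP2-2, also called in roots, had 869, 1047 and 1021 TPM in OX6 shoots and 643, 673 and 677 TPM in WT shoots, a log2 fold change of 0.49 (SE 0.10, adjusted p = 0.00787). Its call was lost without OX6 shoot replicate 2 (adjusted p = 0.0659) or replicate 3 (0.0801), within a range of 7.71e-05 to 0.0801 over 15 alternatives.

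NIP1-1 (LOC_Os02g13870, chromosome 2, 7515989 to 7519336), a NIP called higher in shoots than in roots in both genotypes, had 113, 126 and 121 TPM in OX6 shoots and 68.8, 89.1 and 91.7 TPM in WT shoots. Its log2 fold change was 0.45 (SE 0.12, adjusted p = 0.0305), without overlap. The call was lost when any library other than WT shoot replicate 3 was left out (adjusted p 0.0522 to 0.151), within a range of 0.00191 to 0.151 over 15 alternatives. PIP2-4 had 6.45, 5.10 and 5.07 TPM in OX6 shoots and 9.87, 7.85 and 10.4 TPM in WT shoots, a level 1.77-fold lower in OX6 (log2 fold change -0.83, SE 0.18, adjusted p = 0.011). Its call was lost without OX6 shoot replicate 2 (adjusted p = 0.0774) or replicate 3 (0.0773), within a range of 0.000887 to 0.0774 over 15 alternatives. PIP2-4 and TIP2-2 were thus called in the same direction in both organs. The organ fits share no library, but both compare the same OX6 line with the same WT. The root calls of PIP2-4 and TIP2-2 were lost in the 12-library fit. That of TIP2-2 was also lost when any single root library was left out. PIP2-7, the most abundant shoot member, had a log2 fold change of -0.12 (95% interval -0.36 to 0.12, adjusted p = 0.633). PIP1-2 had 542, 671 and 515 TPM in OX6 shoots and 455, 468 and 378 TPM in WT shoots, with an adjusted p of 0.0999 at a log2 fold change of 0.34. DESeq2 and the fit without a count filter called it (adjusted p = 0.0462 and 0.0376). PIP1-3, called in roots, averaged 28.3 TPM in OX6 shoots and 30.3 TPM in WT shoots. It was not called in shoots (log2 fold change -0.16, adjusted p = 0.704, edgeR).

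**Figure D5:**
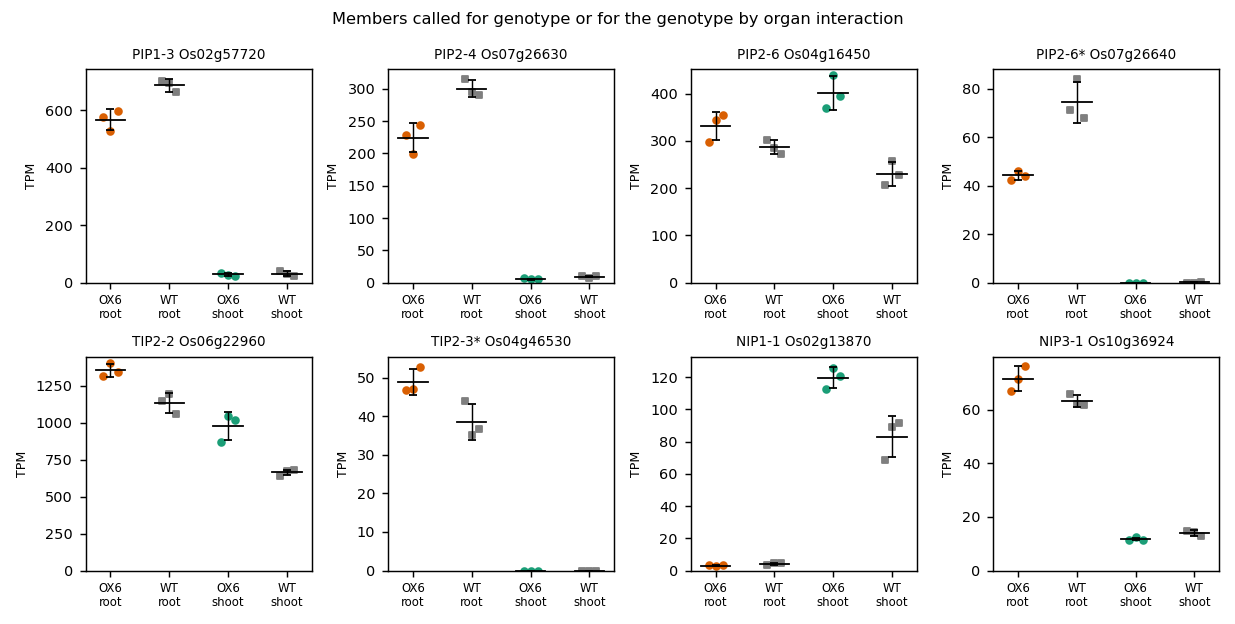
TPM per library (points), mean (line) and SD (error bar, n = 3) in OX6 root, WT root, OX6 shoot and WT shoot for the 8 members called for genotype in an organ or for the difference between organs; an asterisk marks a maize name. The OX6 and WT points of LOC_Os07g26640 (PIP2-6 with an asterisk) separate in roots at up to 46.3 and from 67.9 TPM, and those of PIP2-6 in shoots at from 369 and up to 257 TPM.

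The effect of genotype differed between organs for a pair of NIPs. The difference, the OX6 over WT effect in root minus that in shoot, was tested as an interaction in the 12-library fit. Of 37 members tested, 1 had a larger effect in root and 1 a smaller one, or 5.41%, against a background of 1.97% over all genes (0.692% larger and 1.28% smaller). No PIP1, PIP2, TIP or SIP was called by edgeR, while 4 of them passed an unadjusted p of 0.05 and DESeq2 and limma-voom each called 1, a PIP2.

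NIP1-1 had 3.47, 2.55 and 3.24 TPM in OX6 roots and 3.50, 4.74 and 4.59 TPM in WT roots. All OX6 root libraries were below the WT root libraries, though by a narrow margin, while all OX6 shoot libraries were above the WT shoot libraries. The log2 fold change was -0.47 in roots (adjusted p = 0.224) and 0.45 in shoots, and the difference was -0.93 (SE 0.21, adjusted p = 0.0279). NIP3-1 (LOC_Os10g36924, chromosome 10, 19778055 to 19785158), the boric acid channel, had 67.0, 71.6 and 76.3 TPM in OX6 roots and 65.7, 62.0 and 61.7 TPM in WT roots. In shoots it had 11.4, 12.4 and 11.5 TPM in OX6 and 14.9, 14.3 and 12.9 TPM in WT. It lay higher in OX6 roots and lower in OX6 shoots without overlap, yet it was called in neither of the separate organ fits (log2 fold change 0.18 in roots, adjusted p = 0.174, and -0.33 in shoots, adjusted p = 0.116). The 12-library fit called it lower in OX6 shoots (adjusted p = 0.0168), within a range of 0.0168 to 0.318 over 15 alternatives. The difference was 0.50 (SE 0.11, adjusted p = 0.0204).

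Both interaction calls depended on single libraries, and that of NIP1-1 also on the tool, since limma-voom did not call it (adjusted p = 0.098). NIP1-1 lost its call when OX6 root replicate 2 or 3, WT root replicate 2 or 3, or any OX6 shoot replicate was left out (adjusted p 0.0560 to 0.0948). NIP3-1 lost its call without OX6 root replicate 3, WT root replicate 2 or 3, or OX6 shoot replicate 3 (0.0531 to 0.0742). Without WT shoot replicate 3 the number of members called was 4. PIP2-6 had a difference of -0.53 (adjusted p = 0.0623) and NIP2-2 one of 0.57 (adjusted p = 0.151), the silicon channel having log2 fold changes of 0.24 in roots and -0.34 in shoots (adjusted p = 0.0524 and 0.237). TIP2-2 and PIP2-4, called in both organs, had differences of -0.24 (adjusted p = 0.508) and 0.39 (adjusted p = 0.331).

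Genes that set the gradients and barriers around aquaporins were counted from 26 models matched by name. They were boron transporters, Casparian strip membrane proteins, plasma membrane ATPases and vacuolar proton pyrophosphatases. A search for silicon efflux transporters by name matched 0 models, so silicon export was not examined. Of the 20 models tested in roots, 17 in shoots and 23 for the interaction, 0 were called by edgeR, DESeq2 or limma-voom. In the same order, 1, 2 and 2 passed an unadjusted p of 0.05. Over all genes tested, edgeR called 2.83% in roots, 5.64% in shoots and 1.97% for the interaction. With such shares, 0 calls among so few models says little about these genes. Boron transporter 1 (LOC_Os12g37840), the exporter that works with the boric acid channel, had log2 fold changes of 0.00 in roots (adjusted p = 0.988) and -0.01 in shoots (adjusted p = 0.973). It averaged 234 TPM in OX6 roots and 232 TPM in WT roots, and 20.8 TPM in OX6 shoots and 19.97 TPM in WT shoots. The plasma membrane ATPase of highest level (LOC_Os04g56160), a proton pump, averaged 1155 TPM in OX6 roots and 1191 TPM in WT roots, with a log2 fold change of -0.05 (adjusted p = 0.816).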

How the data were processed

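Per the labels' protocols, RNA was extracted with TRI-Reagent and a column kit. The deposited table holds raw counts per gene model, and the submitters' processing notes name HISAT2 2.0.5 and featureCounts 1.5.0-p3. Build, annotation and strand setting: not given in the sources used here, so reads of overlapping, antisense or near-identical genes may be shared. Of the member identifiers, 0 matched the available reference gene table, and sequences are not used here.

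TPM was computed from counts and the table's gene length over all 57501 models. Counts were tested with edgeR 4.0.16 (R 4.3.3), quasi-likelihood with robust estimation, filterByExpr (minimum count 10, minimum total 15) and TMM scaling. Root and shoot were fitted separately, 6 libraries each, and organ contrasts and the interaction in 1 fit of 12. Tests were two-sided, with Benjamini-Hochberg adjustment over all genes tested, and an adjusted p under 0.05 was called. The fits' biological coefficients of variation were 9.61% (roots), 16.2% (shoots) and 13.2% (12 libraries). Standard errors were derived from the log2 fold change and its F statistic. Replicates differed by more than sampling noise (chi-square per degree of freedom 5.14 to 26.7), and intervals cover the fit's error. The scripts were tested on simulated counts.

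Of 38 members, 4 in roots and 10 in shoots failed the count filter and were not tested. Values, per library or as group means, are given for called members, the 2 most abundant of each subfamily, and the 3 of largest WT organ fold in each direction with at least 5 TPM. The members, lists and tests were chosen with earlier results of these data known. Alternatives were RLE and upper-quartile scaling, 2 other count filters, DESeq2 1.42.0, limma-voom (limma 3.58.1), a replicate block, 12 libraries in 1 fit, a threshold of 0.01, the 6 libraries of 1 genotype alone for organ contrasts, and each library left out.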

Additional observations from a re-analysis of the deposited data

Results flagged for a closer look

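NIP1-1 was marked for a closer look because its OX6 over WT effect differed between organs by the interaction test, at -0.93 on the log2 scale (edgeR, adjusted p = 0.0279, n = 3 libraries per group). All 3 OX6 libraries lay below WT in roots, by a narrow margin, and above WT in shoots. Root levels were low, at 3.08 ± 0.476 TPM in OX6 and 4.28 ± 0.678 TPM in WT, against 120 ± 6.47 TPM in OX6 shoots and 83.2 ± 12.6 TPM in WT shoots. NIP3-1 met the same rule with a difference of 0.50 (adjusted p = 0.0204), and its OX6 libraries lay above WT in roots and below WT in shoots, 3 of 3 in each. For both members this separation comes from the libraries that gave the call and adds no support to it. Over 20 alternatives the adjusted p ranged from 0.00267 to 0.098 for NIP1-1 and from 9.89e-05 to 0.0742 for NIP3-1, and neither changed sign.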

How the results depend on the processing

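No called fold change reversed under the alternatives run, while ratios of subfamily sums near 0 changed sign with 1 library left out (PIP2 in roots, -0.07 to 0.01; NIP in roots, -0.08 to 0.04; SIP in shoots, -0.09 to 0.03). The uncalled root fold changes of NIP2-1 (-0.132 to 0.0326) and PIP2-1 (-0.00961 to 0.0975) also changed sign in that way. Counts of members called between genotypes moved most. For members higher in OX6 roots (2), upper-quartile scaling, no count filter, DESeq2 and limma-voom each gave 3. The CPM filter and the replicate block each left 1, and the 12-library fit and the 0.01 threshold each left 0. Leaving out 1 library gave 0 to 2. For members lower in OX6 roots (3), the replicate block gave 4, and upper-quartile scaling and the 0.01 threshold each left 2. The 12-library fit left 1, and leaving out 1 library gave 2 to 3. In OX6 shoots, members higher ranged from 1 to 3 with 1 library left out. Members lower there (1) became 2 with no count filter and 2 with 12 libraries, 0 at the 0.01 threshold, and 0 to 2 with 1 library left out. Interaction calls (2) rose to 3 with DESeq2 and fell to 1 with the block and 0 at the 0.01 threshold, and leaving out 1 library gave 0 to 4. Organ counts moved little, with 21 to 22 higher and 7 to 9 lower in WT roots, and 19 to 21 higher and 9 to 10 lower in OX6 roots. The causes were not tested. Over all genes tested, deviations of same-numbered libraries correlated at -0.0594 to 0.0509. No general pairing by number was thus seen, but such a correlation cannot exclude a pairing that acts on some genes. Under the replicate block TIP2-2 in roots had an adjusted p of 0.052, PIP2-5 in roots 0.0124 and the NIP3-1 interaction 0.0686. Adding PIP1-1, an alternative chosen after seeing the data, moved the log2 ratio of PIP1 sums in OX6 over WT roots to -0.10, against -0.16. Depth limits the low members: tested members averaging under 1 TPM in both genotypes of an organ had 95% intervals wider than 1 log2 unit.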
